A study of Saccharomyces cerevisiae with 6 samples.

Results

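The PAU, DAN, TIR and COS genes of the budding yeast *Saccharomyces cerevisiae* are gene families with many near-identical members, a large part of them close to chromosome ends. Members were the rows of the deposited comparison table whose gene symbol in the R64 annotation is PAU or COS with a number, DAN1 to DAN4 or TIR1 to TIR4. This gave 27 of the 5793 rows. The annotation holds 42 such genes. The 27 rows were 9 of 24 PAU genes, all 6 DAN and TIR genes, all 11 subtelomeric COS genes, and COS111. COS111 shares the letters of the name and not the sequence family: its annotation describes a gene needed for resistance to the antifungal ciclopirox olamine and unrelated to the COS family at chromosome ends. It was therefore kept apart from the family values.

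RNA-Seq compared heat shock, in which cells were held at 37 °C for 20 min, with optimal growth at 28 °C. Each group had 3 libraries. All libraries came from strain BJ5464 (delta-URA3) grown as 1 YPD culture of 500 mL to an OD600 of 0.75, which was then split. The libraries of a group were 2 mL aliquots of its part of that culture, so p-values measure the spread between aliquots and not between cultures. The study used the comparison to learn which genes changed in fresh cells, before reading chromatin from fixed cells. In RNA from a whole culture, fewer cells using a gene and less RNA per cell cannot be told apart.

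PAU genes, the seripauperins, encode short cell wall mannoproteins. DAN and TIR genes encode longer, serine-rich mannoproteins that are anchored in the wall. Most of these genes are known for being repressed in air, partly by haem-dependent repressors such as Rox1 and Mot3, and induced when oxygen runs out, with the activator Upc2 acting on several of them. TIR1 and TIR2 are also known as cold shock genes. COS proteins are membrane proteins that help carry other membrane proteins into the endosome and on to the vacuole for breakdown. Chromosome ends are silenced regions in yeast, where the Sir proteins hold many genes down.

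At an FDR (the p-value adjusted over all rows) under 0.05, 75.2% of all rows were called, 38.6% as higher and 36.6% as lower after heat shock. Of the 27 member rows 21 were called, which is 77.8% and near that background. Among them 14 were higher and 7 were lower, with a median log2 fold change of 0.26 against 0.015 for all rows. Without COS111, 14 were higher and 6 were lower of 26. The table gives 1 fold change and 1 mean CPM (counts scaled to a common library size) per gene. No library has a value of its own, so the CPM of each group given here was derived from these, and no SD between libraries can be given. The error given is a standard error of the log2 fold change, worked back from the p-value. Its median was 0.11 over the members and 0.061 over all rows. Members were low: their median log2 mean CPM was 2.95, against 6.26 over all rows. Depth per library is unknown here. URA3, which the strain label gives as deleted, still had reads counted, with 88.3 CPM after heat shock and 186 CPM at optimal growth. These values do not show whether the gene is intact, and the reason was not tested.

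The coding starts of the 9 PAU genes with a row are shown because they show how little separates the copies over this stretch. Over whole coding sequences some of these genes differ more, and PAU5 is 87.2% identical to its closest member, PAU17. Each sequence is the first 50 bases of the coding sequence (RefSeq, R64), 5′ to 3′ on the gene's own strand. Capitals mark bases that differ from the commonest base among these 9 genes.
PAU2 (chrV:63728-63777, plus strand): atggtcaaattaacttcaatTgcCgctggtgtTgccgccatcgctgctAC
PAU3 (chrIII:307801-307850, plus strand): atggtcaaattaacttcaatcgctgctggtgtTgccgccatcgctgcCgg
PAU5 (chrVI:99550-99599, minus strand): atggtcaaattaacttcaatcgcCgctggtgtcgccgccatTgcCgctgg
PAU7 (chrI:176974-177023, minus strand): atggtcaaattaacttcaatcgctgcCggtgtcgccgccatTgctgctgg
PAU12 (chrVII:1080306-1080355, plus strand): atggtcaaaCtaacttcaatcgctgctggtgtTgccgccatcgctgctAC
PAU15 (chrIX:433929-433978, plus strand): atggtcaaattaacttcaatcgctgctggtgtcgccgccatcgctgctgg
PAU17 (chrXII:94747-94796, plus strand): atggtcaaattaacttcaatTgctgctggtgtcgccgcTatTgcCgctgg
PAU23 (chrXII:223010-223059, minus strand): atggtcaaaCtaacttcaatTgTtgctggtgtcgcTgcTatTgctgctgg
PAU24 (chrII:809057-809106, plus strand): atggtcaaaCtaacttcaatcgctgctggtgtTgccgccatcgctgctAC
PAU15 had 0 bases in capitals, and PAU23 had the most, with 6. PAU12 and PAU24 were alike in these bases, and their whole coding sequences differed at 4 bases (98.9% identical).

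Of the 24 PAU genes, 20 had coding sequences of 363 to 375 bases, and pairs of these were 82.7% to 100% identical. PAU1 and PAU14, PAU6 and PAU18, and PAU21 and PAU22 were identical pairs. PAU7 was short, at 168 bases. The COS genes fell into a close group and 3 distant members. COS1 to COS8 were 83.9% to 100% identical to each other, and every other COS pair was 61.4% to 72.1% identical. COS2 and COS3 were identical over their whole coding sequence, on chromosomes II and XIII. DAN and TIR pairs ranged from 15.8% to 78.2% of the longer sequence, with TIR1 and TIR2 the closest pair. Unequal lengths lower this measure. The lowest pair was DAN4, of 3486 bases, with TIR1, of 765 bases.

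**Figure D1:**
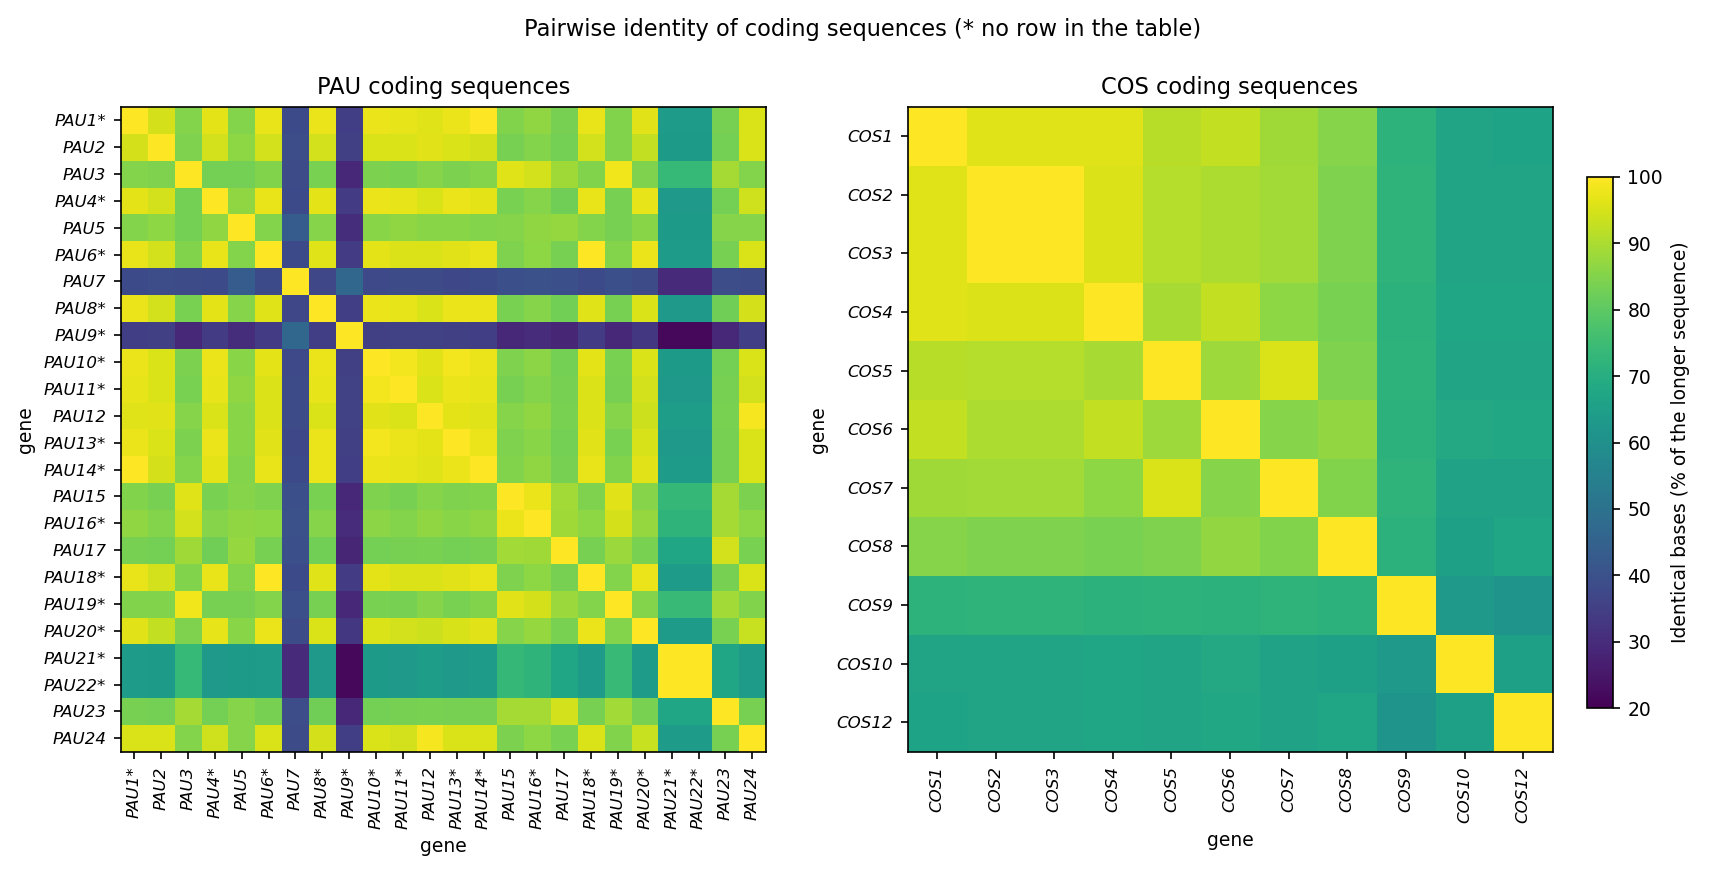
Pairwise identity of the coding sequences of the 24 PAU genes (left) and the 11 COS genes (right), as the percentage of the longer sequence (colour scale). An asterisk marks a gene with no row in the table. COS1 to COS8 form a block of 83.9% to 100%, while COS9, COS10 and COS12 stay at 72.1% or less with every other COS gene.

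Reads from such copies can match several genes. As a measure of this, each gene was cut into its 50-base words, and the share with a second place in the genome, on either strand, was counted (words elsewhere). DAN and TIR genes had 0% of their words elsewhere. Repeats inside the gene itself took 20.2% of the words of TIR4, 19.9% of DAN4 and 13% of TIR1. PAU genes with a row ranged from 0% (PAU7) to 82.5% (PAU12). The 15 PAU genes without a row ranged from 51.9% to 100%, and 7 of them had every word elsewhere. All 15 lay between 1.42 and 14.9 kb from a chromosome end. All 6 PAU genes with 50% or less of their words elsewhere had a row, against 3 of the 18 with more than 50%. Which low genes the authors filtered out is not given, and why these 15 genes have no row was not tested.

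Among the other nuclear protein-coding genes, 2.61% of the 5718 genes with 50% or less of their words elsewhere had no row, against 54.5% of the 242 with more. Of the 86 such genes with every word elsewhere, 81 had no row. For COS genes the picture was different. All 11 had a row, COS2 and COS3 included, although every word of both occurs elsewhere. How the authors counted reads that match several genes is not stated, so the separate values of COS2, COS3, COS5, COS4, COS1, COS7, PAU12, PAU15 and PAU24, which have over 50% of their words elsewhere, are uncertain. The 15 PAU genes without a row are not analysed further.

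**Figure D2:**
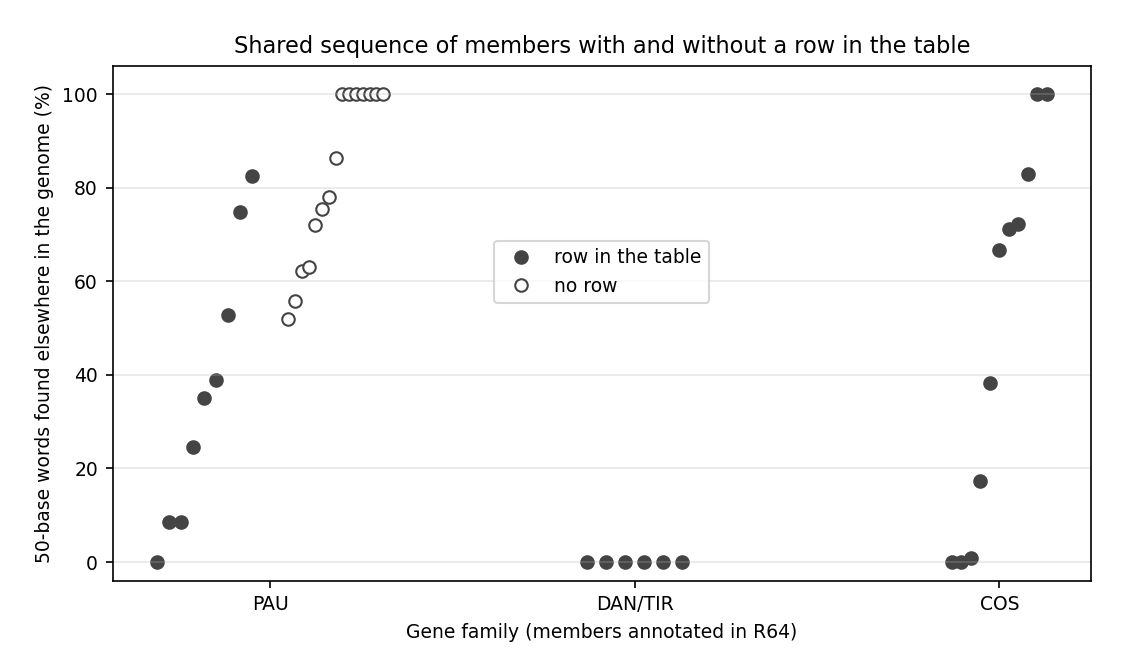
Share of 50-base words found elsewhere in the genome (vertical axis, %) for each annotated PAU, DAN/TIR and COS gene. Filled points are genes with a row in the table and open points are genes without one. The 15 open points are all PAU genes and lie between 51.9% and 100%, while all 11 COS genes are filled, up to 100%.

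By count of rows, the COS family was mostly higher after heat shock. Of its 11 genes, 7 were higher (63.6%, against 38.6% of all rows), 2 were lower and 2 were not called. The median log2 fold change was 0.59 against 0.015 for all rows. Among the 5 genes with 50% or less of their words elsewhere, the direction was mixed. COS6, COS8 and COS9 were higher, and COS10 and COS12 were lower. COS1, COS4, COS5 and COS7, also higher, have over 50% elsewhere, so their calls may not be separate. Summed over the family, the derived CPM was 389 after heat shock and 256 at optimal growth, a log2 ratio of 0.60. COS6 carried 49.9% of the family's CPM after heat shock and 50.5% at optimal growth. The mean of the 11 fold changes was lower than their median, at 0.32, because COS10 and COS12 lay far below the others.

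COS9 (YKL219W, chromosome XI) had the highest fold change of the family. Its level was 70.0 CPM after heat shock and 36.4 CPM at optimal growth, a log2 fold change of 0.94 ± 0.05 (SE, FDR 4.17e-77). Of the COS genes that were higher it shares the least sequence, with 0.85% of its words elsewhere. COS8 (YHL048W, chromosome VIII), with 17.4% elsewhere, had 40.9 CPM after heat shock and 23.5 CPM at optimal growth, a log2 fold change of 0.80 ± 0.08 (FDR 7.38e-25). COS6 (YGR295C, chromosome VII), with 38.3% elsewhere, had 194 CPM after heat shock and 129 CPM at optimal growth, a log2 fold change of 0.59 ± 0.08 (FDR 1.25e-12). These 3 genes have under 50% of their words elsewhere, and each was higher by more than its error.

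The other COS genes that were higher share more of their sequence. COS7 (YDL248W, chromosome IV) had 13.5 CPM after heat shock and 7.35 CPM at optimal growth, a log2 fold change of 0.88 ± 0.10 (FDR 1.03e-16). COS5 (YJR161C, chromosome X) had 13.5 CPM after heat shock and 8.06 CPM at optimal growth, a log2 fold change of 0.74 ± 0.11 (FDR 1.02e-11). COS1 (YNL336W, chromosome XIV) had 36.1 CPM after heat shock and 25.1 CPM at optimal growth, a log2 fold change of 0.53 ± 0.07 (FDR 2.36e-14). COS5 and COS7 are each other's closest copies, 95.6% identical, so reads could pass between them. COS4 (YFL062W, chromosome VI) was low in both groups, at 2.12 CPM after heat shock and 1.4 CPM at optimal growth, with a log2 fold change of 0.60 ± 0.22 (FDR 0.00917).

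Both genes that were lower are distant from the close group and have 0% of their words elsewhere. COS12 (YGL263W, chromosome VII) had 1.72 CPM after heat shock and 3.42 CPM at optimal growth, a log2 fold change of -0.99 ± 0.18 (FDR 1.45e-07). COS10 (YNR075W, chromosome XIV) had 9.72 CPM after heat shock and 14.2 CPM at optimal growth, a log2 fold change of -0.55 ± 0.09 (FDR 4.59e-09). The identical genes COS2 and COS3 were not called. COS2 (YBR302C) had 2.06 CPM after heat shock and 2.13 CPM at optimal growth (FDR 0.880), and COS3 (YML132W) had 5.44 CPM after heat shock and 5.43 CPM at optimal growth (FDR 1). Their levels differ although no read within the coding sequence can be assigned to either gene by the sequence of this reference.

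Per kilobase, COS6 stood above the rest of its family, with 169 CPM per kb after heat shock and 113 CPM per kb at optimal growth. Its mean level lay at the 77.1th percentile of all protein-coding rows. COS9 came next, with 57.2 CPM per kb after heat shock and 29.7 CPM per kb at optimal growth, at the 38.6th percentile. COS4 and COS2 were the lowest, at the 0.578th and 0.736th percentiles. These levels are uncertain, since 72.3% of the words of COS4 and 100% of those of COS2 occur elsewhere.

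**Figure D3:**
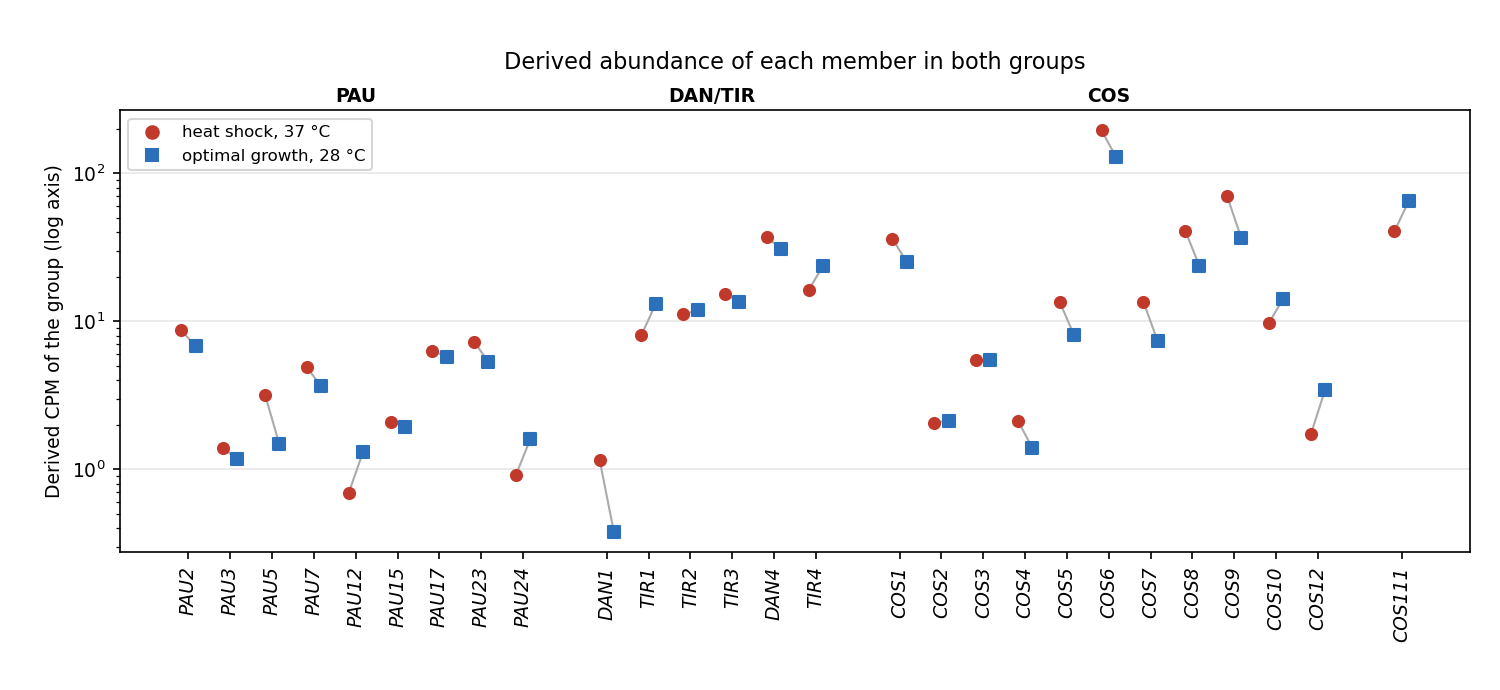
Derived CPM of each member (log axis), with heat shock (37 °C, circles) to the left of optimal growth (28 °C, squares), and a grey line joining the groups. COS6 is the highest member in both groups, at 194 CPM after heat shock and 129 CPM at optimal growth, and DAN1 is the lowest at optimal growth, at 0.378 CPM.

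COS111 (YBR203W, chromosome II), the member by name only, had 40.5 CPM after heat shock and 64.4 CPM at optimal growth. It was lower, with a log2 fold change of -0.67 ± 0.05 (FDR 5.90e-37).

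The 6 DAN and TIR genes had no common direction. DAN1, DAN4 and TIR3 were higher, TIR1 and TIR4 were lower and TIR2 was not called. That is 50% higher and 33.3% lower, against 38.6% and 36.6% of all rows. Their median log2 fold change was 0.049, and their summed derived CPM was 88.8 after heat shock and 93.3 at optimal growth. Leaving out DAN1, which falls under a log2 mean CPM of 1, turned the median to -0.084.

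DAN1 (YJR150C, chromosome X), a mannoprotein of anaerobic cells, had the highest fold change of all members and one of the lowest levels. It had 1.16 CPM after heat shock and 0.378 CPM at optimal growth, a log2 fold change of 1.61 ± 0.34 (FDR 4.04e-06). At 0.245%, the percentile of its mean CPM per kb among protein-coding rows was the lowest of the members. DAN4 (YJR151C), which lies 2547 bases from DAN1 on the same strand, had 36.9 CPM after heat shock and 30.9 CPM at optimal growth, a log2 fold change of 0.26 ± 0.11 (FDR 0.0239). TIR3 (YIL011W, chromosome IX) had 15.2 CPM after heat shock and 13.4 CPM at optimal growth, a log2 fold change of 0.18 ± 0.09 (FDR 0.0477). The calls of DAN4 and TIR3 were lost at an FDR under 0.01.

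TIR1 (YER011W, chromosome V), a cold shock mannoprotein, had 8.07 CPM after heat shock and 13.1 CPM at optimal growth. It was lower by a log2 fold change of -0.70 ± 0.10 (FDR 3.72e-11). TIR4 (YOR009W, chromosome XV) had 16.3 CPM after heat shock and 23.7 CPM at optimal growth, a log2 fold change of -0.54 ± 0.09 (FDR 7.04e-10). TIR2 (YOR010C) lies 396 bases from TIR4 and is transcribed towards it. It had 11.2 CPM after heat shock and 11.8 CPM at optimal growth, a log2 fold change of -0.084 ± 0.098 (FDR 0.442). TIR1 and TIR2 share 78.2% of their bases, and whether their fold changes differ from each other was not tested.

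The PAU family was low and mixed. Of its 9 rows, 4 were higher, 2 were lower and 3 were not called, with a median log2 fold change of 0.26. That is 44.4% higher and 22.2% lower, against 38.6% and 36.6% of all rows. Their summed derived CPM was 35.4 after heat shock and 29.0 at optimal growth. These 9 genes are a part of a family of 24, and their values do not stand for the family as a whole. The mean of the 9 fold changes was 0.13, and the median was 0.39 among those with a log2 mean CPM of 1 or more, and likewise without the 3 that have over 50% of their words elsewhere.

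PAU5 (YFL020C, chromosome VI) had the highest fold change. It had 3.20 CPM after heat shock and 1.48 CPM at optimal growth, a log2 fold change of 1.11 ± 0.20 (FDR 3.07e-08), with 24.7% of its words elsewhere. PAU23 (YLR037C, chromosome XII; also named DAN2) had 7.25 CPM after heat shock and 5.33 CPM at optimal growth, a log2 fold change of 0.44 ± 0.13 (FDR 9.41e-04). PAU7 (YAR020C, chromosome I), with 0% of its words elsewhere, had 4.90 CPM after heat shock and 3.63 CPM at optimal growth, a log2 fold change of 0.44 ± 0.16 (FDR 0.00800). PAU2 (YEL049W, chromosome V) had 8.66 CPM after heat shock and 6.78 CPM at optimal growth, a log2 fold change of 0.35 ± 0.11 (FDR 0.00142). These 4 genes and PAU17, which was not called, lie more than 50 kb from a chromosome end.

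Both PAU genes that were lower are the near-identical copies PAU12 and PAU24. PAU12 (YGR294W, chromosome VII) had 0.692 CPM after heat shock and 1.30 CPM at optimal growth, a log2 fold change of -0.91 ± 0.28 (FDR 0.00203). PAU24 (YBR301W, chromosome II; also named DAN3) had 0.917 CPM after heat shock and 1.59 CPM at optimal growth, a log2 fold change of -0.80 ± 0.26 (FDR 0.00396). They share 45.5% of their 50-base words with each other. PAU12 shares more with PAU13 (55.7%) and PAU10 (50.3%), which have no row. Whether reads were shared among these copies was not tested. PAU12 lies 915 bases from COS6, and PAU24 lies 920 bases from COS2. PAU3, PAU17 and PAU15 were not called, with log2 fold changes of 0.26, 0.14 and 0.10 and FDR of 0.362, 0.334 and 0.696.

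**Figure D4:**
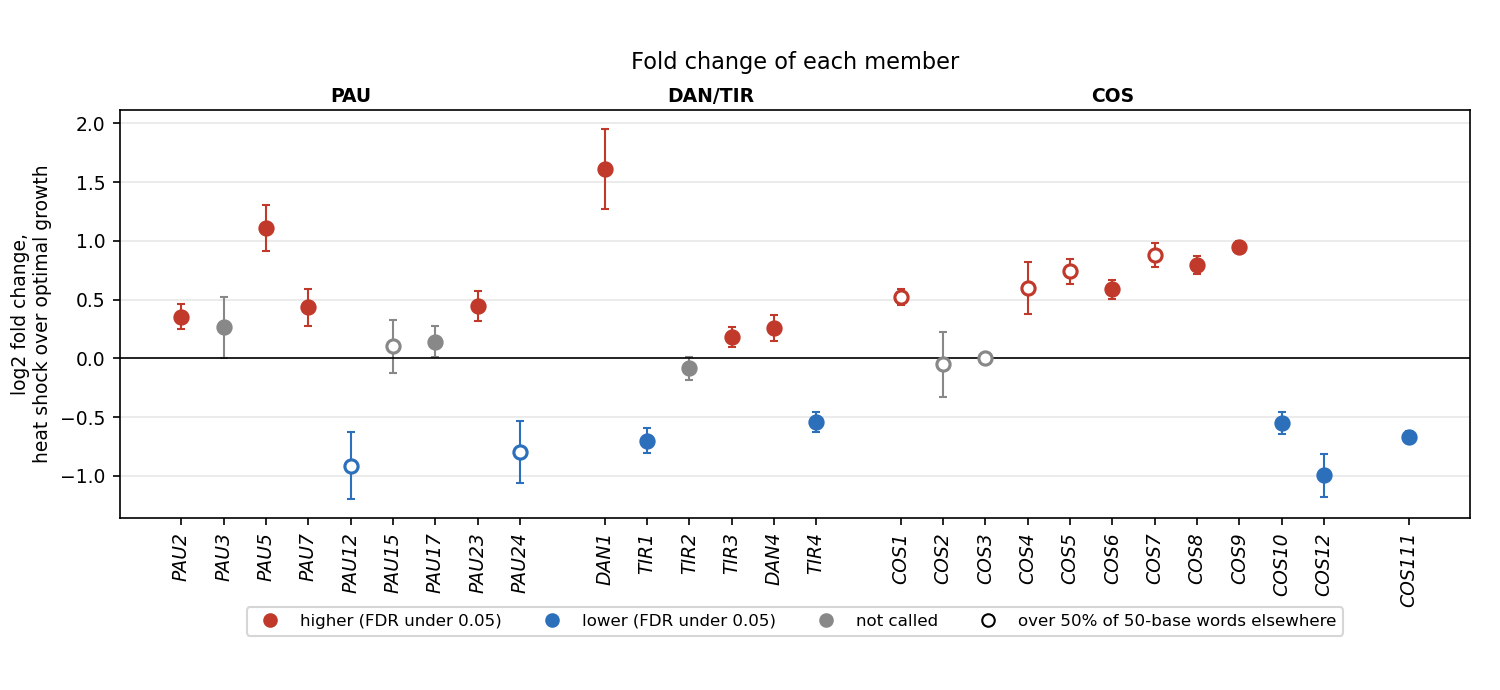
Log2 ratio of heat shock to optimal growth for each member with a row (vertical axis), with bars of 1 standard error worked back from the p-value. Colour gives the call at FDR under 0.05, and open points are genes with over 50% of their 50-base words elsewhere. COS12, COS10, PAU12, PAU24, TIR1, TIR4 and COS111 are the 7 that lie below 0 with a call, and COS3 has no bar because its p-value is 1.

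The families differ in where they lie. All 11 COS genes and 19 of the 24 PAU genes lie within 30 kb of an end, against 0 of the DAN and TIR genes. DAN4, at 30.0 kb, lies just beyond that distance. Of the 15 member rows within 30 kb, 7 were higher and 4 were lower, so 73.3% were called, against 75.2% of all rows. Among the 291 other rows within 30 kb, 67.0% were called, with 117 higher and 78 lower and a median log2 fold change of 0.065.

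The windows upstream of the COS genes are shown because the close group and the distant members differ there as well. Promoter windows run from 250 bases before the start codon to 50 bases into the coding sequence, since the annotation gives no transcript starts. The windows of COS1 to COS8 were 90.3% to 100% identical, and other COS pairs were 55.0% to 63.3% identical. In the following windows (R64, 5′ to 3′ on the gene's strand), capitals mark AGGGG or its complement CCCCT, the stress response element that the activators Msn2 and Msn4 are known to bind.
COS7 (chrIV:1552-1851, plus strand): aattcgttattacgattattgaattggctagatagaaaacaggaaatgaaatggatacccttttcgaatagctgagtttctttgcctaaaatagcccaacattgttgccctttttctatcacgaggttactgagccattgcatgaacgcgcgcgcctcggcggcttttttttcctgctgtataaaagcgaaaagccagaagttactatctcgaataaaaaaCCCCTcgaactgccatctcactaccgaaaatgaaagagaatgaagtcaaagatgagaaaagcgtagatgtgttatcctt
COS9 (chrXI:14235-14534, plus strand): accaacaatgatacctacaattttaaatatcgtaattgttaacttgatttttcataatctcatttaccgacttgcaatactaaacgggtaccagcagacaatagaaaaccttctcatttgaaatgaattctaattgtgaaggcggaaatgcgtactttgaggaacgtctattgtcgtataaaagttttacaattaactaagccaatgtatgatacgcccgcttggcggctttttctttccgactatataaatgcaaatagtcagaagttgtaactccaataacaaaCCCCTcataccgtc
COS10 (chrXIV:779666-779965, plus strand): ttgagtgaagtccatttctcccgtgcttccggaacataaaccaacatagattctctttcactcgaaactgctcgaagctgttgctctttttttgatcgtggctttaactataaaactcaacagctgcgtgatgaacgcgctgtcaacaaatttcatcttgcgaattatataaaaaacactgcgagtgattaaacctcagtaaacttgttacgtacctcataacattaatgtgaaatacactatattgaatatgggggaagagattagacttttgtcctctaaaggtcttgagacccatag
COS12 (chrVII:2540-2839, plus strand): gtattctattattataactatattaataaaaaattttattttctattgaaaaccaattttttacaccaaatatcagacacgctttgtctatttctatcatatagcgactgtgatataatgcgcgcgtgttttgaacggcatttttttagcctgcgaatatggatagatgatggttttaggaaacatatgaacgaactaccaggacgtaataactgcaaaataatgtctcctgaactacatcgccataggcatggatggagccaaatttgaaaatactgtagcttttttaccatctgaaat
COS7 carries the letters 29 bases before its start codon. COS9 carries them at base 37 of a coding sequence that is annotated longer, at 1224 bases against 1152 bases for COS7. COS10 and COS12, both lower after heat shock, have no capitals in these windows.

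The same letters stand 29 bases before the start codon in each of COS1 to COS8. The 40 bases around them are shown for the 4 versions that occur, with the same capitals.
COS1 (chrXIV:8283-8322, plus strand): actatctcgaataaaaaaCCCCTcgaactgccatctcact
COS4 (chrVI:6379-6418, plus strand): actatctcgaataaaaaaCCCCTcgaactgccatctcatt
COS6 (chrVII:1082737-1082776, minus strand): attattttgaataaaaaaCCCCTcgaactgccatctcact
COS8 (chrVIII:6354-6393, plus strand): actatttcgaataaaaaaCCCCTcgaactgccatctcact
COS2, COS3, COS5 and COS7 had the same 40 bases as COS1. COS2 and COS3, which were not called, hold the same letters as the COS genes that were higher. These windows are copies of each other, so they are not independent of each other.

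AGGGG was searched on both strands in the windows of all 5706 protein-coding rows, with 3 other motifs none of which contains another, and was found in 21.9%. Among all rows with it, 55.7% were higher and 24.1% were lower, against 34.2% higher and 40.1% lower among rows without it. It was found in 9 of 11 COS windows, in 2 of the 9 PAU windows with a row (PAU2 and PAU23) and in 0 of 6 DAN and TIR windows. The window of COS111, which was lower, held it as well. The heat shock element, written as GAANNTTC or TTCNNGAA, was found in 22.9% of all windows and, among members with a row, in those of COS10, DAN1, DAN4, PAU7 and COS111. Among all rows with these letters 38.8% were higher, against 38.9% of rows without them. Longer forms of the element were not searched. ATTGTT, the core of the Rox1 site, was found in 34.8% of all windows. It was found in 9 of 11 COS windows, 3 of 6 DAN and TIR windows and 3 of 9 PAU windows, and in that of COS111. The COS windows with it are those of COS9 and of COS1 to COS8, which are copies of each other. Among all rows with it 39.3% were higher, against 38.7% of rows without it.

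**Figure D5:**
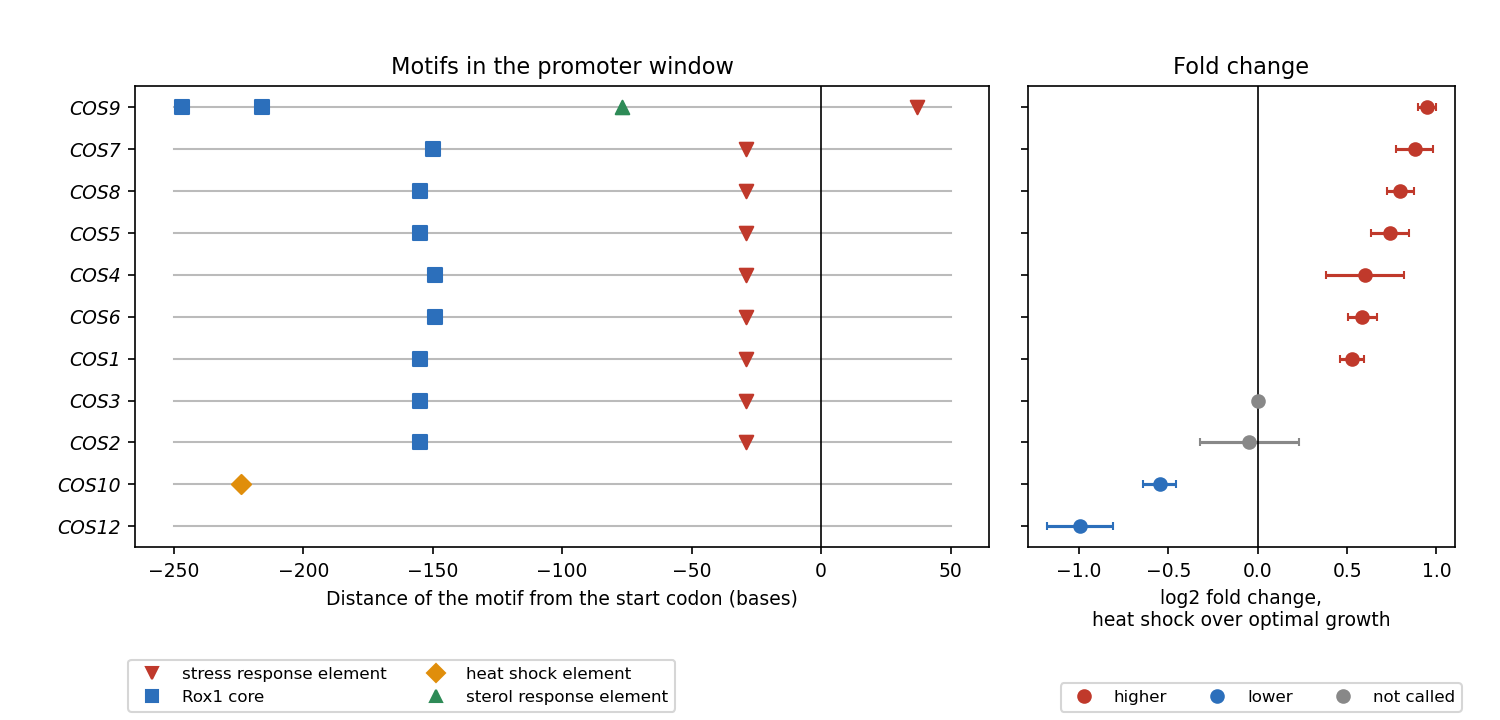
Left, positions of 4 motifs in the promoter window of each COS gene (horizontal axis, bases from the start codon), with genes ordered by fold change. Right, the log2 ratio of heat shock to optimal growth with 1 standard error. The stress response element stands 29 bases before the start codon in COS1 to COS8 and within the coding sequence in COS9, and is not found in the windows of COS10 and COS12.

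TCGTATA, the sterol response element that Upc2 is known to bind, was found in 4.19% of all windows and in those of DAN1, DAN4, PAU2 and COS9. All 4 genes were higher after heat shock. Among all rows with it 40.2% were higher and 34.3% were lower, against 38.9% and 36.7% of rows without it. DAN1 and DAN4 are neighbours, and the call of DAN4 was lost at an FDR under 0.01. The window of DAN1 is shown as the member with the highest fold change, with the element (here TATACGA on the gene's strand) in capitals 203 bases before the start codon.
DAN1 (chrX:709658-709957, minus strand): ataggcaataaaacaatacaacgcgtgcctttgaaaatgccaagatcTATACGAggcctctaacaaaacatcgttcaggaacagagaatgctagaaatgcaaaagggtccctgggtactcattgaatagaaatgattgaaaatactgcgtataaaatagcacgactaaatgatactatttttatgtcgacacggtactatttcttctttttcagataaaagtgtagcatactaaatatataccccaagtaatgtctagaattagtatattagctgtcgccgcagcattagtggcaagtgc
A match of letters is a description of the window, and no binding was measured in these libraries.

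The pathways around the families were described by lists of genes with known roles. Over all rows, 38.6% were higher and 36.6% were lower, which is the background for each list. Of 9 regulators of anaerobic genes, 3 were higher, 3 were lower and 3 were not called, with a median log2 fold change of -0.032. ROX1, the repressor of anaerobic genes, was higher by 0.74 (FDR 1.25e-33), and MOT3, which represses DAN and TIR genes in air, by 0.54 (FDR 2.26e-33). ECM22, a sterol regulator related to UPC2, had a log2 fold change of -0.49 (FDR 5.24e-23), and HAP1, the haem-dependent activator of ROX1, had -0.34 (FDR 2.93e-08).

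Of 11 other genes that are induced without oxygen, 4 were higher and 4 were lower, with a median of -0.0015. CYC7, the second form of cytochrome c, was higher by 3.43 on the log2 scale, with 199 CPM after heat shock and 18.4 CPM at optimal growth. COX5B, a cytochrome oxidase subunit of low-oxygen cells, was higher by 1.33. ANB1, a translation factor copy of anaerobic cells, had a log2 fold change of -0.63 (FDR 2.02e-04), and HEM13, an enzyme of haem synthesis, had -0.48 (FDR 1.12e-11). The list thus had no common direction either.

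Of 7 other cell wall mannoproteins, 4 were higher and 2 were lower, with a median log2 fold change of 0.63. SPI1, a wall protein of stressed cells, was higher by 4.13, with 339 CPM after heat shock and 19.4 CPM at optimal growth. TIP1, the cold shock and heat shock mannoprotein after which the TIR genes are named, was higher by 1.69 (FDR 2.71e-82). CWP2 and CCW12, abundant structural wall proteins, had log2 fold changes of -0.69 (FDR 2.88e-29) and -0.51 (FDR 1.26e-14).

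Of the 9 DUP240 genes, membrane protein genes related to the COS family, 5 were higher, 1 was lower and 3 were not called, with a median of 0.53. DFP4 had 14.4 CPM after heat shock and 4.11 CPM at optimal growth, a log2 fold change of 1.81 (FDR 1.07e-33). UIP3 was higher by 1.26 (FDR 5.57e-107). MST27, with 63.9% of its words elsewhere, had a log2 fold change of -0.62 (FDR 3.15e-07).

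Of 17 genes that sort membrane proteins into the vacuole, the route in which COS proteins act, 9 were higher and 3 were lower, with a median of 0.16. DOA4, which removes ubiquitin from the cargo, was higher by 0.65 (FDR 2.10e-31), and VPS28, a subunit of the ESCRT-I sorting complex, by 0.55 (FDR 1.32e-12). RSP5, the ubiquitin ligase of this route, had a log2 fold change of -0.21 (FDR 4.66e-04), and DID4, a late subunit, had -0.19 (FDR 0.00162). Of 11 genes of silencing near chromosome ends, 3 were higher and 6 were lower, with a median of -0.19. YKU70 and YKU80, the Ku proteins that bind chromosome ends, were higher by 0.93 (FDR 3.44e-73) and 0.23 (FDR 3.85e-04). RIF1, a telomere length regulator, had -0.86 (FDR 1.44e-47), and RAP1, the telomere-binding protein that recruits the Sir proteins, had -0.41 (FDR 1.69e-09).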

How the data were processed

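RNA was sequenced from libraries of both groups. The paper describes stranded mRNA libraries for its mouse RNA and names no library type for the yeast RNA. The authors mapped reads with kalign to R64 (sacCer3) with repeats masked and compared the treatments with edgeR through Trinity. How reads were counted (strand, reads matching several genes), which low genes were filtered out, and the edgeR test and dispersion are not given in the sources used here. The deposited table holds the authors' own comparison: a log2 fold change, a log2 mean CPM, a p-value and an FDR for each gene. These values of the authors' edgeR run were used as deposited, because the table is the only source of the measurements here. The FDR was checked to equal the Benjamini-Hochberg adjustment.

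Group CPM was worked out as if the mean CPM weighted both groups equally, and the standard error assumes a normal statistic. Neither is an SD of libraries. Rows were matched to RefSeq R64 (annotation SGD R64-5-1) by locus tag (5715) or symbol (76), and 2 did not match. Identity, words and motifs were computed from that genome. The code for the derived CPM, the adjustment and the words was tested on simulated data, and the code for identity and motifs was not. The members and gene lists were chosen with earlier results of these data known. Members were named by family. Of each other list, at most the 2 highest and 2 lowest called genes were named. Alternatives covered thresholds, adjustment, low-value filters, scaling and word length. No batch or date stood in the labels used here. Tools were biopython 1.88, scipy 1.17.1, matplotlib 3.10.9, pandas 2.3.3 and numpy 2.4.6 under Python 3.11.15.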

Additional observations from a re-analysis of the deposited data

How the results depend on the processing

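The 14 higher and 7 lower calls among the members became 9 higher and 5 lower at an FDR under 0.001, and 8 higher and 5 lower under Bonferroni. They became 2 higher and 0 lower where the log2 fold change had to reach 1 in size. Among genes whose log2 mean CPM was 5 or more, 4 higher and 1 lower were left, and the lower gene was COS111, the member by name only. The calls lost were 2 at an FDR under 0.01 (DAN4 and TIR3), 7 at 0.001, 8 under Bonferroni and 4 under Benjamini-Yekutieli. Among the lists of related genes, 28 higher and 19 lower calls became 7 and 0 under the same minimum size of the log2 fold change. The DAN and TIR median of 0.049 became -0.084 among genes of log2 mean CPM 1 or more and 0.26 among those of 5 or more, where DAN4 alone was left. The COS median of 0.59 became 0.32 as a mean and 0.80 among genes of log2 mean CPM 5 or more, where only COS6, COS8 and COS9 were left. No PAU gene reached 5, so that setting gave no PAU value. With 100-base words, the median share elsewhere was 47.3% for all annotated PAU genes and 45.6% for COS genes, against 73.5% and 66.6% with 50-base words. Other scalings shifted every log2 fold change by -0.015 or 0.050, less than the size of any member's called value. They turn the sign of COS3 and COS2, which were not called. Leaving out COS111 was chosen after the data were seen. DESeq2, other count filters, a replicate block and leaving out replicates were not run. No paired analysis was possible because single libraries have no values in the table. The standard error of the log2 fold change was highest for DAN1 (0.34), PAU12 (0.28) and COS2 (0.28), leaving out COS3, which has none.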
